A study of Mus musculus with 4 samples.

Results

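The genes described here encode proteins of DNA damage signalling and DNA repair. They were taken from a fixed list of 45 symbols covering the damage kinases, homologous recombination, the Fanconi pathway, end joining, mismatch repair and excision repair. A listed gene was measured where a probe set of the array carried its symbol alone, and where several did, the one with the highest mean over the 4 arrays was used. This gave 41 members among 22180 genes measured in the same way. No probe set was found under the listed spellings Claspn and Rbbp8 in the annotation used, which does not show that the array lacks these genes. Both were not analysed here. Fanca and Apex1 each had a single probe set that also carried another gene's symbol, and these were left out.

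RNA came from embryoid bodies of the R1 mouse embryonic stem cell line; these are floating aggregates in which the stem cells start to form early lineages. All embryoid bodies were grown from feeder-depleted cells for 18 h without LIF, the cytokine that holds stem cells in self-renewal. The treatments were 1.88 µM GSK-J4, an inhibitor of the KDM6 histone demethylases; 1.88 µM GSK-J5, which the labels call a vehicle compound and group with the vehicle controls; DMSO, the vehicle; and EB medium with nothing added. Each treatment had 1 array, so no difference in this text has a replicate spread of its own and no p-value was computed. The series asks whether KDM6 inhibition elicits a DNA damage response in differentiating cells as opposed to self-renewing ones; no self-renewing sample is analysed here.

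As background, the kinases ATM and ATR are activated by double-strand breaks and by stalled replication forks. They act mainly by phosphorylating proteins such as CHK1, CHK2, p53 and the histone variant H2A.X, so much of damage signalling takes place without a change in transcript level. Breaks are rejoined by end joining or copied from the sister chromatid by homologous recombination, crosslinks are handled by the Fanconi proteins, and damaged or mispaired bases are removed by the excision and mismatch pathways. Embryonic stem cells divide fast and express many of these genes at high levels even when untreated.

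Levels are given on the log2 scale of the deposited values, where a difference of 0.263 is 1.2-fold. A gene was counted as higher in GSK-J4 when it lay at least 1.2-fold above the highest of the GSK-J5, DMSO and EB medium arrays, and as lower when it lay at least 1.2-fold below the lowest of them. The margin of a gene is how far GSK-J4 lay outside the controls' range, measured to the closest control, and 0 for a gene inside it. As a measure of RNA amount, a level on this scale can be compared between arrays for 1 gene but not between genes.

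All 41 members passed the filter on dim genes, which was set at the 40th percentile of all genes, 6.585. All 9 pluripotency and epiblast markers passed it as well, and their summed level, in log2, was 15.41 in GSK-J4 and 15.57 on each control array. Such sums depend most on the brightest probe sets and serve only to compare arrays. Sox2 read 13.02 in GSK-J4 with 12.93 to 13.02 over the controls, and Zfp42 was also inside its range. Esrrb lay above all controls, at 8.97 against 8.73 to 8.86, a margin of 0.11. The epiblast markers Fgf5, Dnmt3b and Tdgf1 lay below all controls, with margins of −1.43, −0.77 and −0.36. Pou5f1, Nanog and Utf1 lay below by less, with margins of −0.05, −0.06 and −0.09. Of 8 measured feeder fibroblast markers 4 passed, while Dcn, Lum, Postn and Col3a1 did not; their summed level was 9.60 in GSK-J4 and 9.74 to 9.85 over the controls. Primitive endoderm markers summed to 9.02 in GSK-J4 against 8.86 to 8.97, with 2 of 4 passing. Blood and endothelial markers summed to 11.43 against 10.91 to 10.99, also with 2 of 4 passing. Those 2, Laptm5 and Pecam1, lay above all controls with margins of 1.29 and 0.37, and Pecam1 already read 10.72 to 10.80 over the controls. Ptprc, which defines blood cells, read 4.49 in GSK-J4 and 4.37 to 4.51 over the controls, under the filter. Kdr, also under the filter, read 6.37 in GSK-J4, inside the controls' range of 6.25 to 6.42. The part of these markers in the repair gene levels was not tested. In RNA from whole embryoid bodies, fewer cells of a type and less RNA per cell cannot be told apart.

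Most damage signalling and repair genes read close to their controls in GSK-J4 embryoid bodies: 29 of 41 (70.7%) lay inside the controls' range or within 0.1 log2 units of it, beside 57.6% of all genes that passed the filter. Of the 41 members 3 were counted as higher: Prkdc, Ogg1 and Atr. That is 7.32% of the members, beside 9.73% of the 13314 genes that passed the filter. The members counted as lower numbered 0, beside 6.02% of all genes. By any amount, 14 members lay above all 3 controls (34.1%, against 38.0% of all genes), 16 lay below them (39.0%, against 35.5%) and 11 lay inside their range. No member reached 1.5-fold in either direction, a size reached by 2.21% of all genes upward and 0.841% downward. When the GSK-J5, DMSO or EB medium array was put in the place of GSK-J4 and set against the other 3 arrays, 0 members passed the 1.2-fold rule in either direction, and at most 0.691% of all genes did so in 1 direction.

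**Figure D1:**
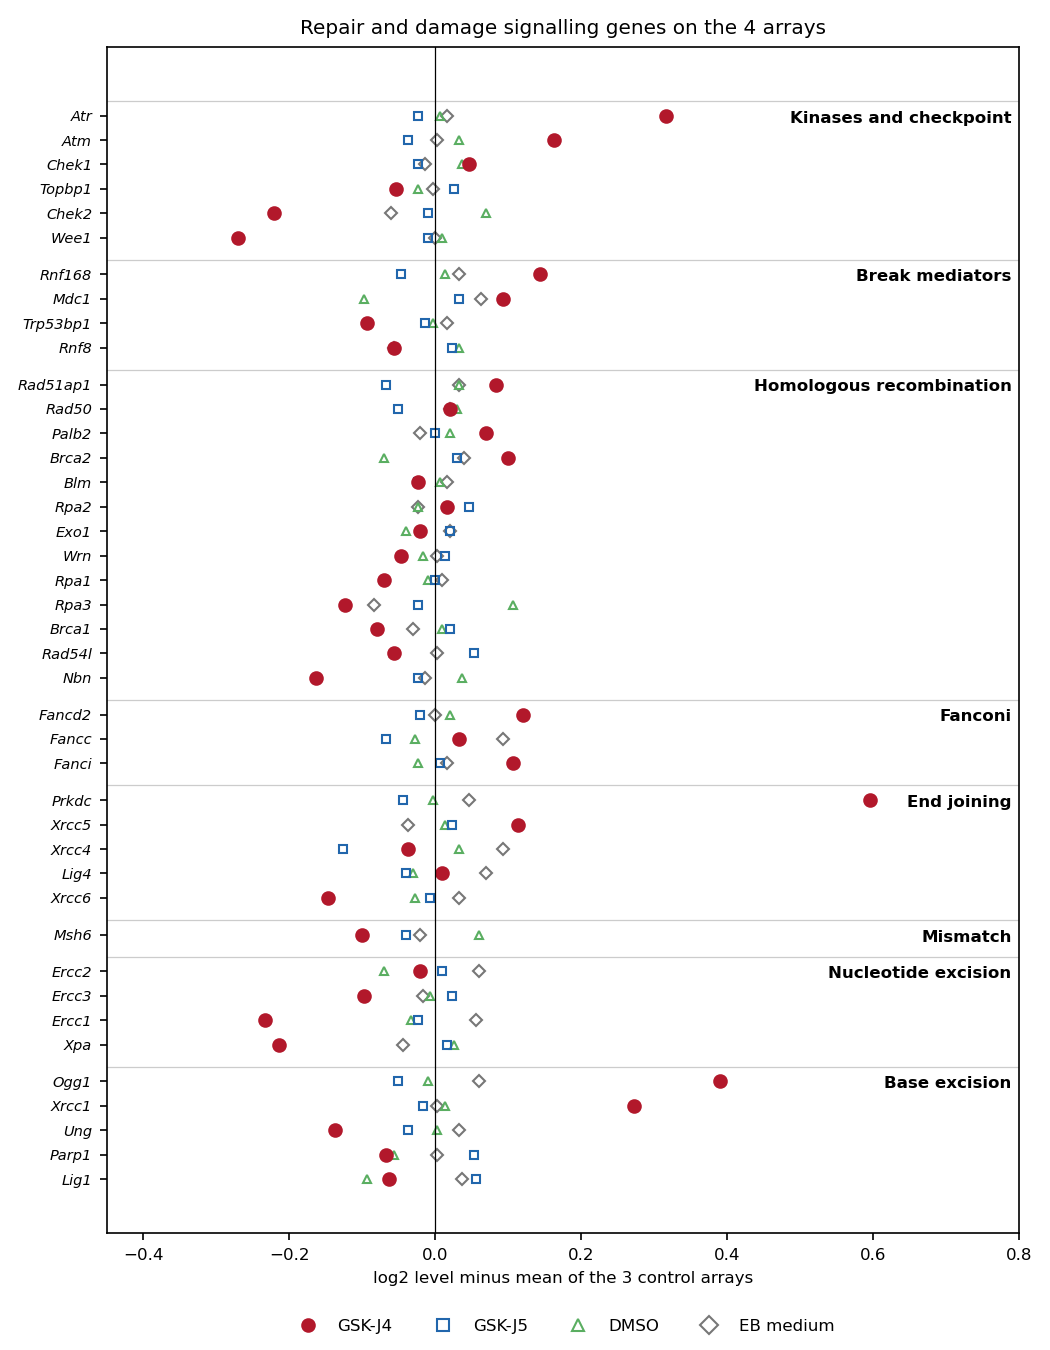
Log2 level of each of the 41 genes (rows, grouped by pathway) on the GSK-J4, GSK-J5, DMSO and EB medium arrays, drawn as the distance from the mean of the 3 control arrays (horizontal axis). Each mark is 1 array; most GSK-J4 marks lie near the controls, with Prkdc, Ogg1 and Atr the farthest to the right and Wee1, Ercc1 and Chek2 the farthest to the left.

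Sequence is shown first for Ogg1 and Atr, members past the rule for which a RefSeq promoter was at hand; 33 of the 41 members had one, and Prkdc did not. The lines give the 250 bases before the RefSeq gene start in GRCm38.p6, plus strand for both, at chr6:113326726-113326975 for Ogg1 and chr9:95857347-95857596 for Atr. Capitals mark CCAAT, the letters of the NF-Y box, on either strand; here both matches are on the minus strand and so read ATTGG.
Ogg1: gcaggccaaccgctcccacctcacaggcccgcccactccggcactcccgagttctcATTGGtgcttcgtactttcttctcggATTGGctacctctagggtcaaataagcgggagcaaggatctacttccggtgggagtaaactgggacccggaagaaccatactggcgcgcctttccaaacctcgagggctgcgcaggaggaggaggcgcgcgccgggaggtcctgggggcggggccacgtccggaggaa
Atr: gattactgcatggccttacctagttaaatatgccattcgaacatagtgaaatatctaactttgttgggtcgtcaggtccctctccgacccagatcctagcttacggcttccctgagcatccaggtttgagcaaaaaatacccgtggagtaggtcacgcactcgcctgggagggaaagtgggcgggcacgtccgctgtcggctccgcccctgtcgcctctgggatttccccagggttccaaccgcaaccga
The Ogg1 window holds CCAAT at both marked places, and the Atr window holds none of the motifs searched.

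The search covered 300 bases around each start, from 250 before to 50 after, on both strands. CCAAT was found for 20 of the 33 members (60.6%) and for 41.1% of all 27025 genes in the promoter table. E2F letters, taken as TTTCGCGC, TTTGGCGC or TTTCCCGC, were found for 7 of 33 members (21.2%) and for 2.12% of all genes. The 27025 genes were not limited to those passing the filter on dim genes, which all members passed. E2F factors drive genes of the S phase. TTTGAA, the letters of the cell cycle homology region of mitotic genes, was found for 1 member (3.03%), Rnf8, against 20.2% of all genes. TGATGCAA, a composite of ATF4 and C/EBP letters, was found for 0 members and 1.03% of all genes. None of these motifs contains another, and a match describes the sequence without showing binding.

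The 7 E2F matches are shown because this motif had, of the motifs searched, the highest share among members relative to all genes. Each line is 30 bases on the plus strand of GRCm38.p6, with the match in capitals, reading GCGGGAAA or GCGCGAAA where it lies on the minus strand.
Chek2, chr5:110839820-110839849: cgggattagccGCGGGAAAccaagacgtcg
Brca2, chr5:150522442-150522471: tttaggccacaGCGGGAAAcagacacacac
Xrcc6, chr15:82016312-82016341: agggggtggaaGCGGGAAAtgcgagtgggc
Mdc1, chr17:35841471-35841500: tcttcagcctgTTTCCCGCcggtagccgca
Msh6, chr17:87975054-87975083: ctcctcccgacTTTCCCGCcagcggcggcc
Lig1, chr7:13278841-13278870: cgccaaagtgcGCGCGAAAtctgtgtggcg
Topbp1, chr9:103305187-103305216: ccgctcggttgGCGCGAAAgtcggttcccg
None of these 7 genes passed the 1.2-fold rule, beside 9.73% of all genes higher and 6.02% lower. Brca2 and Mdc1 had margins of 0.06 and 0.03, Lig1 was inside the controls' range, and Chek2, Xrcc6, Msh6 and Topbp1 had margins of −0.16, −0.12, −0.06 and −0.03.

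Among the damage kinases and checkpoint genes, Atr was the single one past the rule. Atr, which responds to single-stranded DNA at stalled forks, read 10.43 in GSK-J4, against 10.09 in GSK-J5, 10.12 in DMSO and 10.13 in EB medium. Its controls spanned 0.04 and the GSK-J4 array lay 0.30 above the highest of them, 1.23-fold. A dimmer probe set of Atr gave the same direction, with 6.95 in GSK-J4 and 6.56 to 6.62 over the controls, a margin of 0.33. Atm, the kinase of double-strand breaks, read 10.34 in GSK-J4, against 10.14 in GSK-J5, 10.21 in DMSO and 10.18 in EB medium, a margin of 0.13 that did not reach the rule.

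Wee1, the kinase that holds CDK1 inactive before mitosis, was the member farthest below its controls. It read 11.47 in GSK-J4, against 11.73 in GSK-J5, 11.75 in DMSO and 11.74 in EB medium. The margin of −0.26 stopped just short of 1.2-fold, over controls that spanned only 0.02. Chek2, the effector kinase of ATM, read 10.82 in GSK-J4, against 11.03 in GSK-J5, 11.11 in DMSO and 10.98 in EB medium. Chek1, the effector kinase of ATR, lay level with its controls at 11.66 in GSK-J4, against 11.59 in GSK-J5, 11.65 in DMSO and 11.60 in EB medium. Topbp1, which activates ATR, read 11.94 in GSK-J4, with 11.97 to 12.02 over the controls. Of the 6 measured genes of this group, 1 was counted as higher (beside 9.73% of all genes) and 0 as lower (beside 6.02%). The other 5 lay outside the controls' range by less than 1.2-fold. By any amount, 3 of the 6 lay above all controls (beside 38.0% of all genes) and 3 below (beside 35.5%). Lying outside the range was thus common among all genes as well.

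The mediators that mark and read chromatin around a break differed little. Rnf168, a ubiquitin ligase that marks histone H2A beside breaks, read 11.46 in GSK-J4, against 11.27 in GSK-J5, 11.33 in DMSO and 11.35 in EB medium. Trp53bp1, which binds that mark and favours end joining, read 10.22 in GSK-J4, against 10.30 in GSK-J5, 10.31 in DMSO and 10.33 in EB medium. Both lay outside their controls, in opposite directions, with margins of 0.11 and −0.08. Mdc1, the scaffold bound to phosphorylated H2A.X, read 10.53 in GSK-J4 against 10.34 to 10.50, and Rnf8, the ligase that acts before Rnf168, read 8.49, equal to its lowest control. No gene of the 4 passed the rule, beside 9.73% of all genes higher and 6.02% lower.

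Homologous recombination was the group with the most genes. Of its 13 measured genes 12 (92.3%, beside 57.6% of all genes) lay inside the controls' range or within 0.1 of it, Nbn being the exception. The 13 measured genes had margins between −0.14 and 0.06, and 0 were counted in either direction, beside 9.73% of all genes higher and 6.02% lower. Nbn, a subunit of the complex that senses broken ends, read 9.41 in GSK-J4, against 9.55 in GSK-J5, 9.61 in DMSO and 9.56 in EB medium, the lowest margin of the group. Rad50, of the same complex, did not share it: 11.28 in GSK-J4 lay inside the controls' range of 11.21 to 11.29. Brca2, which loads the recombinase onto single-stranded DNA, read 10.66 in GSK-J4, against 10.59 in GSK-J5, 10.49 in DMSO and 10.60 in EB medium, the highest margin of the group. Palb2, its partner, read 9.45 in GSK-J4 against 9.36 to 9.40, and Brca1, which recruits both, read 10.94 against 10.99 to 11.04.

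The remaining recombination genes were as close to their controls. Rad51ap1, an accessory factor of strand invasion, read 9.59 in GSK-J4 against 9.44 to 9.54, and Rad54l, a motor protein of the same step, read 9.92 against 9.92 to 10.03. Exo1, a nuclease that resects broken ends and also serves mismatch repair, read 11.32 inside the range of 11.30 to 11.36. For the helicase genes, Blm read 11.60, equal to its lowest control, and Wrn read 9.18 against 9.21 to 9.24. Each of these 5 genes lay within 0.05 of its nearest control or inside the range.

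The 3 genes of replication protein A, the complex that coats single-stranded DNA, read within 0.06 of their controls. Rpa1 read 11.52 in GSK-J4 against 11.58 to 11.60, Rpa2 read 11.29 inside the range of 11.25 to 11.32, and Rpa3 read 11.53 against 11.57 to 11.76. The dimmer probe sets did not all agree: that of Rpa1 read 7.19 in GSK-J4 against 6.91 to 7.09, above its controls where the brighter one was below. For Rpa3 the dimmer one also lay below its controls, at 9.16 against 9.22 to 9.49.

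Both Fanconi genes of the central ubiquitinated pair were slightly above their controls. Fancd2 read 11.48 in GSK-J4, against 11.34 in GSK-J5, 11.38 in DMSO and 11.36 in EB medium. Fanci, its partner, read 10.75 in GSK-J4, against 10.65 in GSK-J5, 10.62 in DMSO and 10.66 in EB medium. The margins were 0.10 and 0.09, over controls that spanned 0.04 for each gene. Fancc, a subunit of the core complex that ubiquitinates the pair, read 7.35 in GSK-J4, inside the controls' range of 7.25 to 7.41. None of the 3 passed the rule, beside 9.73% of all genes higher and 6.02% lower.

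End joining held the member farthest from its controls. Prkdc, the kinase that DNA ends recruit and switch on in end joining, read 10.11 in GSK-J4, against 9.47 in GSK-J5, 9.51 in DMSO and 9.56 in EB medium. Its margin of 0.55 is 1.46-fold, and its controls spanned 0.09. The difference was 0.64 to GSK-J5, 0.60 to DMSO and 0.55 to EB medium. The subunits that carry this kinase to broken ends did not show a like difference: Xrcc5 read 12.20 in GSK-J4 against 12.05 to 12.11, and Xrcc6 read 8.74 against 8.86 to 8.92. These 2 genes encode the Ku heterodimer, and their margins, 0.09 and −0.12, were of opposite sign. For the ligation complex, Lig4 read 9.15 in GSK-J4, inside 9.10 to 9.21, and Xrcc4 read 7.67, inside 7.58 to 7.80.

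**Figure D2:**
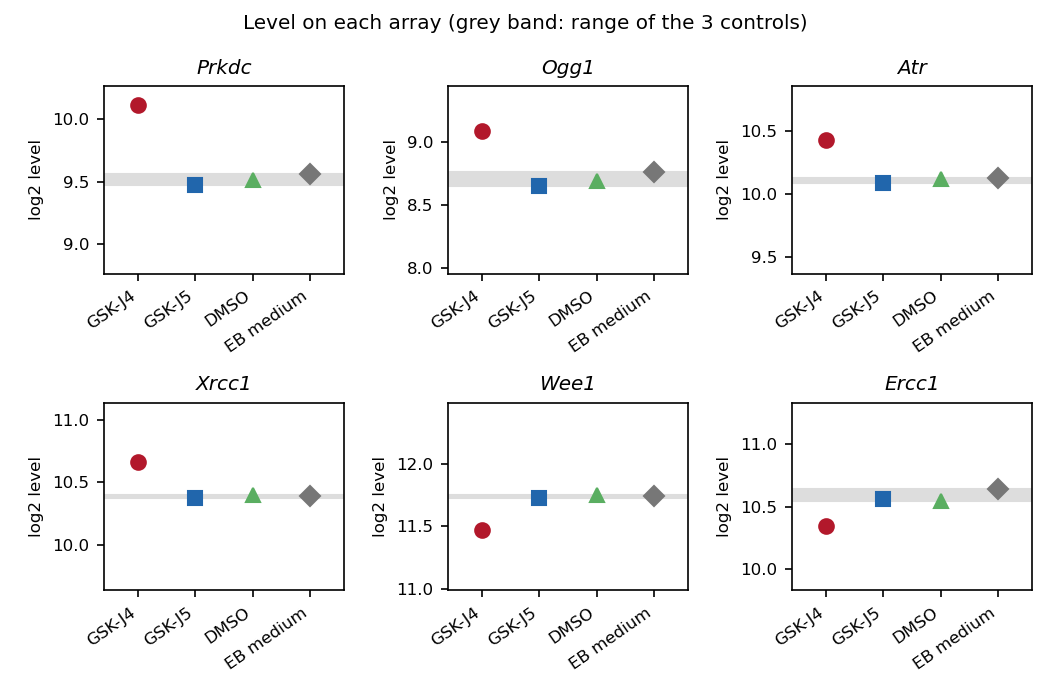
Log2 level (vertical axis, 1.5 log2 units in each panel) of Prkdc, Ogg1, Atr, Xrcc1, Wee1 and Ercc1 on the GSK-J4, GSK-J5, DMSO and EB medium arrays, 1 point per array, with the range of the 3 controls as a grey band. GSK-J4 lies above the band for Prkdc (margin 0.55), Ogg1 (0.33), Atr (0.30) and Xrcc1 (0.26) and below it for Wee1 (−0.26) and Ercc1 (−0.20).

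Of the 4 nucleotide excision genes among the members, 3 read below all controls (75%, beside 35.5% of all genes) and 0 above (beside 38.0%), none past the rule. This pathway removes bulky lesions such as those left by ultraviolet light. Ercc1, a subunit of the nuclease that cuts on one side of the lesion, read 10.35 in GSK-J4, against 10.56 in GSK-J5, 10.55 in DMSO and 10.64 in EB medium. Xpa, the scaffold that verifies the lesion, read 9.02 in GSK-J4, against 9.25 in GSK-J5, 9.26 in DMSO and 9.19 in EB medium. Both lay below all controls, by 0.20 and 0.17, and neither passed the rule. Of the helicases of the same pathway, Ercc3 read 12.21 in GSK-J4 against 12.29 to 12.33, and Ercc2 read 10.60, inside 10.55 to 10.68. The median difference over these 4 genes was −0.165 to GSK-J5, −0.145 to DMSO and −0.125 to EB medium, where the medians over all genes were 0.00, 0.01 and 0.00. Nucleotide excision genes outside the members, named here after their values were seen, did not share this direction: Ercc5, Ercc6, Xpc and Ercc4 lay above all controls, with margins of 0.68, 0.23, 0.20 and 0.12, Rad23b lay below by 0.02, and Ddb1 and Ercc8 were inside the range.

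In base excision, Ogg1 was counted as higher and Xrcc1 just missed it. Ogg1, the glycosylase that removes oxidised guanine, read 9.09 in GSK-J4, against 8.65 in GSK-J5, 8.69 in DMSO and 8.76 in EB medium. Its margin of 0.33 is 1.26-fold, and its controls spanned 0.11. Xrcc1, the scaffold on which single-strand breaks are sealed, read 10.66 in GSK-J4, against 10.37 in GSK-J5, 10.40 in DMSO and 10.39 in EB medium. Its margin of 0.26 lies short of 0.263 by less than the last decimal place of the deposited values, as does that of Wee1, so the number of members past the rule turns on rounding for these 2 genes.

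The other base excision genes did not lie above their controls. Ung, the glycosylase that removes uracil, read 9.84 in GSK-J4 against 9.94 to 10.01. Parp1, the sensor of single-strand breaks that recruits Xrcc1, read 12.60 against 12.61 to 12.72, and Lig1, the ligase of replication and long-patch repair, read 11.65 inside 11.62 to 11.77. Mismatch repair was represented by a single gene, Msh6, a subunit of the complex that recognises mispaired bases. It read 11.93 in GSK-J4, against 11.99 in GSK-J5, 12.09 in DMSO and 12.01 in EB medium, a margin of −0.06.

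GSK-J4 was also set against each control alone, GSK-J5 being at the same dose and time; these 3 comparisons share the GSK-J4 array. Against GSK-J5, Prkdc, Ogg1, Atr and Xrcc1 were at least 1.2-fold higher, 4 members (9.76%, beside 15.5% of all genes), and 0 were lower (beside 11.9%). Against DMSO, Prkdc, Ogg1 and Atr were higher (7.32%, beside 17.3%) and Chek2 and Wee1 lower (4.88%, beside 12.1%). Against EB medium, Prkdc, Ogg1, Atr and Xrcc1 were higher (9.76%, beside 13.4%) and Ercc1 and Wee1 lower (4.88%, beside 11.2%). In each comparison the members' share was below that of all genes in both directions. The members' median difference was −0.03 to GSK-J5, 0.00 to DMSO and −0.05 to EB medium. Between GSK-J5 and DMSO, 0 members differed by 1.2-fold (beside 2.71% of all genes higher and 2.46% lower), and the median was −0.01, with single members between −0.16 and 0.15. No member differed by 1.2-fold between GSK-J5 and EB medium (beside 3.09% of all genes higher and 2.68% lower) or between DMSO and EB medium (beside 3.57% higher and 3.09% lower).

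At the median, the members differed by smaller amounts than all genes, between treatments and between controls alike. Their median absolute difference was 0.10 for GSK-J4 against GSK-J5, beside 0.15 for all genes that passed the filter, 0.09 beside 0.16 for GSK-J4 against DMSO, and 0.08 beside 0.14 for GSK-J4 against EB medium. Between GSK-J5 and DMSO it was 0.04 beside 0.08, between GSK-J5 and EB medium 0.04 beside 0.07, and between DMSO and EB medium 0.05 beside 0.08. The 3 controls of a member spanned 0.07 at the median, those of all genes 0.12. The members' probe sets also gave brighter signal, with a median level of 10.59 against 9.03, which does not compare RNA amounts between genes. Genes above the 60th percentile of level had a median control span of 0.10.

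**Figure D3:**
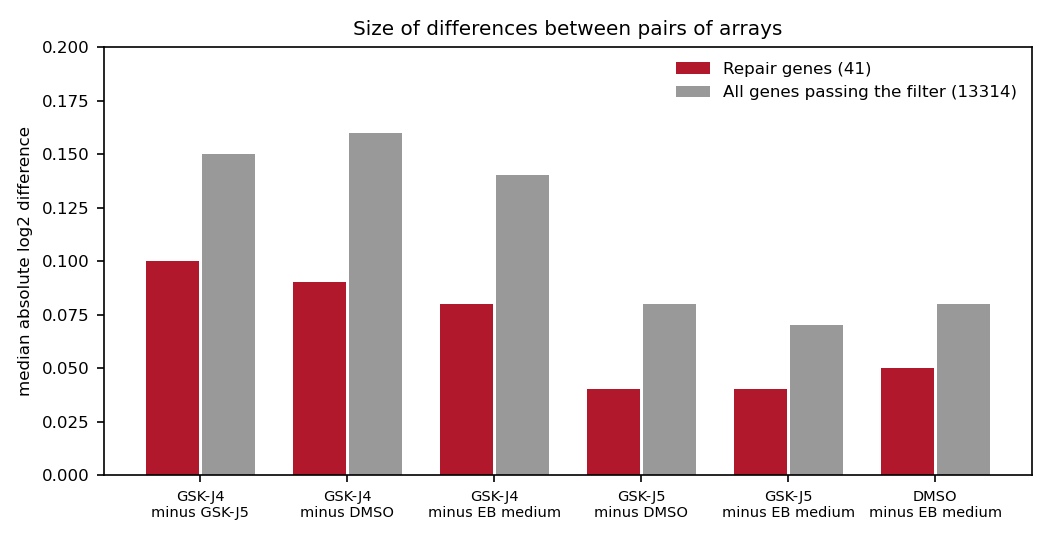
Median absolute log2 difference (vertical axis) between 6 pairs of arrays for the 41 repair and damage signalling genes (left bar) and all 13314 genes passing the filter (right bar). The members' bars reach 0.08 to 0.10 for the pairs with GSK-J4 and 0.04 to 0.05 for pairs of controls, below the bar of all genes in each of the 6 pairs.

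Other repair genes, outside the 45, were drawn from a further list of 85, of which 75 were measured. In GSK-J4, 5 of the 75 were counted as higher (6.67%, beside 9.73% of all genes) and 1 as lower (1.33%, beside 6.02%). By any amount, 35 lay above all controls (46.7%, beside 38.0%) and 17 below (22.7%, beside 35.5%). Polk, a polymerase that copies past damaged bases, read 9.77 in GSK-J4, against 8.73 in GSK-J5, 8.66 in DMSO and 8.72 in EB medium. Rev1, a scaffold of the same translesion step, read 11.45 in GSK-J4, against 10.96 in GSK-J5, 10.92 in DMSO and 11.01 in EB medium. Polq, the polymerase of microhomology-mediated end joining, read 8.98 in GSK-J4 against 8.42 to 8.45. These 3 genes had margins of 1.04, 0.44 and 0.53, while Rev3l, Polh, Poli and Rad18, other translesion genes of the list, named after their values were seen, had margins of 0.11, 0.05, 0.18 and 0.07 and did not pass.

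The other genes counted on that list belong to excision repair and to damaged chromatin. Ercc5, the nuclease that cuts opposite Ercc1, read 9.56 in GSK-J4 against 8.74 to 8.88, a margin of 0.68. Nthl1, a glycosylase of oxidised pyrimidines, read 8.99 against 8.67 to 8.70, a margin of 0.29. H2ax, the histone variant phosphorylated around breaks, was the gene counted as lower, at 12.77 in GSK-J4, against 13.10 in GSK-J5, 13.10 in DMSO and 13.08 in EB medium. Ercc5 and Polk are also on the p53 target list. The 3 measured genes shared with the p53 target list were then set aside. Of the remaining 72, 3 were higher (4.17%, beside 9.73% of all genes) and 1 lower (1.39%, beside 6.02%). Cdc25a, on the same list, had a margin of −0.26 and stopped just short of being counted as lower. The median difference over the 75 was 0.07 to GSK-J5, 0.07 to DMSO and 0.03 to EB medium.

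On the same arrays p53 targets were counted in most cases. Of 29 measured p53 targets, 28 of which passed the filter, 23 were at least 1.2-fold higher in GSK-J4, Fas under the filter included. That is 79.3%, against 3 of the 41 members (7.32%) and 9.73% of all genes. The p53 targets farthest from their controls were Cd80, a costimulatory ligand, with a margin of 1.95, and Plk2, a polo-like kinase, with 1.84. The counted genes of DNA replication and mitosis were few, and all of them were lower. Of 26 replication genes 0 were higher (beside 9.73% of all genes) and 3 lower (11.5%, beside 6.02%). The 3 were the thymidine kinase gene Tk1 (−0.48) and Cdc6 and Ccne1, the loader of the replicative helicase and cyclin E1 (−0.31 each). Of 21 mitosis genes 0 were higher (beside 9.73% of all genes) and 3 lower (14.3%, beside 6.02%). The lower ones were led by the kinase genes Plk1 (−0.47) and Aurkb (−0.30). By any amount, 18 of 21 lay below all controls (85.7%, beside 35.5% of all genes). These lists were chosen with earlier results of these data known, so their shares are no independent contrast to the members. They describe the arrays beside the repair genes, and the part of the cell cycle genes in the values of the members was not tested.

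**Figure D4:**
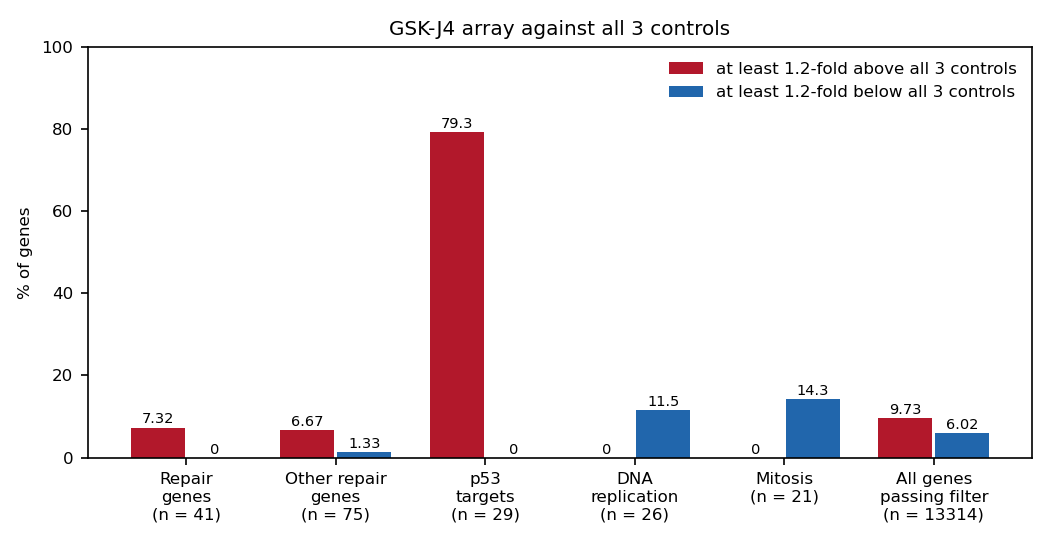
Share of genes (vertical axis, %) at least 1.2-fold above (left bar) or below (right bar) all 3 controls on the GSK-J4 array, for the repair and damage signalling genes, the other repair genes, p53 targets, DNA replication and mitosis genes, and all genes passing the filter; n is the number of measured genes. The repair genes show 7.32% and 0%, beside 9.73% and 6.02% of all genes and 79.3% of p53 targets higher.

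The neighbours of the 3 counted members in the RefSeq gene order did not pass the rule, though Xrn1 beside Atr lay above all controls. They were looked up after the members' values were seen, among protein-coding genes within 5000 bases. Mcm4, a replicative helicase subunit whose gene lies next to Prkdc, read 12.54 in GSK-J4, against 12.64 in GSK-J5, 12.66 in DMSO and 12.67 in EB medium. The margin of Mcm4 was −0.10, against 0.55 for Prkdc. Xrn1, an RNA exonuclease beside Atr, read 10.35 in GSK-J4, against 10.12 in GSK-J5, 10.01 in DMSO and 9.99 in EB medium, a margin of 0.23. It was past 1.2-fold against DMSO and EB medium but not against GSK-J5. For 1700065D16Rik, which overlaps Atr, GSK-J4 lay inside the controls' range, at a level under the filter. The same held, above the filter, for Camk1, which overlaps Ogg1, and for Brpf1 next to it.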

How the data were processed

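The authors' deposited table holds log2 expression values; per the submitters' processing notes, RMA and Affymetrix Expression Console 1.2.1.20 were used. RMA corrects background, gives the arrays a common distribution and summarises probe sets. No source states the log base, and base 2 was inferred from the range of 2.2 to 14.48. Values carry 2 decimals, array medians over 41345 probe sets were 6.63 to 6.65, and 1 array per treatment limits the precision.

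Arrays were grouped by the treatment label. Names came from the platform table, in which 23521 probe sets had 1 symbol and 1814 several symbols, which were left out. All 41 members matched RefSeq (GRCm38.p6) by gene identifier; promoters and gene order are RefSeq's, and the array's own build was not stated. Differences, margins and counts were computed with Python 3.11.15, numpy 2.4.6, pandas 2.3.3 and statsmodels 0.14.6, and the call rule was tested on simulated data. The differences planted there were larger than the margin of any member, so recovery of differences of the members' size was not tested. The members, lists, fold and filter were chosen with earlier results of these data known. Full values are given for members past the rule and the 2 with the largest margin per pathway. Of these, Xrcc6 has its controls given as a range, and Atm, Chek1 and Chek2 have full values outside this choice. Other repair genes were named when past the rule, and 2 per comparison list by margin, ties included. Alternatives were median centring, repeated quantile normalization, loess (span 0.3), the median over probe sets, leaving out each control, a 1.5-fold rule, a filter at the 60th percentile and the mean over members.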

Additional observations from a re-analysis of the deposited data

How the results depend on the processing

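Prkdc, Ogg1 and Atr passed the 1.2-fold rule under all 7 alternatives of scaling, probe set choice and left-out controls, with margins of 0.53 to 0.60, 0.27 to 0.40 and 0.27 to 0.32. Xrcc1 ranged from 0.24 to 0.27 and Wee1 from −0.27 to −0.23, on both sides of the rule. The count of members lower than all controls was 1 in place of 0 after repeated quantile normalization and with the GSK-J5 array left out, Wee1 in both cases. The count higher was 0 in place of 3 under the 1.5-fold rule, since the largest margin, 0.55 for Prkdc, was under 0.585. The 1.2-fold rule was chosen with this known. Under the other settings the count higher was 3 or 4. The mean over members was 0.0163 to GSK-J5 and −0.0039 to EB medium, against medians of −0.03 and −0.05; the mean and the median to GSK-J5 differ in sign. Medians over members stayed between −0.06 and 0.01 under all scalings and filters tried, and no member's counted difference changed sign. Between 12 and 16 members lay above and 15 to 20 below the controls by any amount. The background share higher was 9.58% above the 60th percentile and 7.29% with no filter, and the share lower 5.67% and 6.1%. No paired analysis was possible because each treatment has 1 array. No scanner files were used here, so signal over background, which limits dim genes, was not examined.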
